A study of Mus musculus with 22 samples.

Results

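Prostaglandin synthesis genes were followed in FE1 cells, an epithelial line from the lung of the transgenic MutaMouse, after exposure for 24 h to the multiwalled carbon nanotubes named Mitsui7. The 10 genes were Pla2g4a, Ptgs1, Ptgs2, Ptges, Ptges2, Ptges3, Ptgis, Ptgds, Ptger4 and Hpgd. They were found by matching the transcript accession of each probe to a gene symbol, which gave 15 probes for the 10 genes, out of 20018 genes named on the array. Where a gene had several probes, the brightest stood for it and the others are given beside it. The samples were vehicle control cells (0 µg/ml, 5 arrays) and cells given a low dose (12.5 µg/ml, 6 arrays), a medium dose (25 µg/ml, 5 arrays) or a high dose (100 µg/ml, 6 arrays) of Mitsui7. All 4 groups were kept in the same medium, which held fetal bovine serum, antibiotics and murine epidermal growth factor, and the controls received no nanotubes. On every array the RNA of the cells carried the dye Cy5 and a pool of RNA from mouse cell lines carried Cy3. Arrays of a group may share an exposure experiment, so n counts arrays. The value of a gene on an array was the log2 ratio of Cy5 to Cy3 after loess normalisation, and a difference between groups is a log2 change of that ratio.

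Prostaglandins are short-lived lipid mediators made in most tissues. Phospholipases release arachidonic acid from membranes, a cyclooxygenase turns it into the unstable prostaglandin H2, and a terminal synthase turns that into a final product, which acts on receptors of neighbouring cells and is then oxidised to an inactive form. In the lung, prostaglandin E2 from epithelial cells acts on airway tone, on fibroblasts and on leukocytes, and prostacyclin relaxes vessels. The cyclooxygenase step has a form made at a steady level in many cells, encoded by Ptgs1, and an inducible form, encoded by Ptgs2, whose short-lived mRNA rises within hours of growth factors, cytokines or stress.

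The sequences in front of both cyclooxygenase genes are shown because the isoenzymes catalyse the same reaction but only Ptgs2 passed the test described further on. Each run holds the 250 bases before the annotated RefSeq transcript start in the mouse build GRCm38.p6, read 5′ to 3′ on the plus strand, for Ptgs2 at chr1:150099781-150100030 and for Ptgs1 at chr2:36230176-36230425. Another run holds 25 bases just after the annotated start of Ptgs2, at chr1:150100036-150100060. Capitals mark matches to any of the 6 motifs searched.
Ptgs2 before its start: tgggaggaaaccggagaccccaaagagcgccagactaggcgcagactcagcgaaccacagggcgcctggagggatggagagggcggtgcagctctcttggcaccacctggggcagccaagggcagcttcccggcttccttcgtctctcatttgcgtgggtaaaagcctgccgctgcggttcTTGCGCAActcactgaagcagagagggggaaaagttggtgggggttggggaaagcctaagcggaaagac
Ptgs2 after its start: caccactaCGTCACGTGgagtccgc
Ptgs1 before its start: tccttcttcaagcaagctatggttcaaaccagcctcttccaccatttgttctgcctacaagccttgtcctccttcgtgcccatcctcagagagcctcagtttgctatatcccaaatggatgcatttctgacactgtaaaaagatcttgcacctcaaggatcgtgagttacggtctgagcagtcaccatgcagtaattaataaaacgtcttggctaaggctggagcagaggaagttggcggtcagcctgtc

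The motifs, each searched on both strands of the 300 bases from 250 before to 50 after a start, were TATAAA (the TATA box), TGACG (the core of a cAMP response element), CACGTG (an E-box), TTGCGCAA (a C/EBP palindrome), TGANTCA (AP-1) and the NF-kB consensus. In the Ptgs2 window 3 of the 6 were found. The palindrome TTGCGCAA lay 69 to 62 bases before the start, and 0.183% of the 32851 windows of all genes held this motif. The cAMP core, on the minus strand at bases 14 to 18 from the annotated start, overlapped the E-box at bases 17 to 22. All positions depend on the annotated start, and where transcription starts in these cells was not tested. These motifs were held by 20.8% and 7.15% of all windows. None of the 6 was found in the Ptgs1 window, where the other shares over all windows were 13.6% for the TATA box, 7.81% for AP-1 and 4.51% for NF-kB. Of the other genes with an entry in the promoter table, Ptges2 held an E-box, Ptges3 a cAMP core, Ptgds an AP-1 and an NF-kB match, and Hpgd and the second of the 2 Pla2g4a windows a TATA box. Ptges, Ptger4 and the first Pla2g4a window held none, and Ptgis had no entry. A match describes letters in a window and does not show that a factor binds there.

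The 22 arrays were spread over 5 slides. There were 2 arrays per group on slide 1, 1 per group on each of slides 2 to 4, and 1 low and 1 high dose array on slide 5, so slide was a term of the model. Between 23688 and 39138 probes were above the detection level on an array. Over the probes detected on 4 or more arrays of the control or the high dose group, 16 of the 22 arrays were closest to the mean of their own group after adjustment for slide. Of the other 6, low dose replicate 2 was closest to the controls (r 0.168, against 0.015 with its own group), low dose replicate 1 and high dose replicate 6 to the medium dose, medium dose replicate 2 to the low dose, and medium dose replicates 1 and 5 to the high dose. Results were recomputed without each of them, and without low dose replicate 1 and medium dose replicate 2 together. Of 7 epithelial markers, 5 were detected on at least 4 of the 5 control arrays (Krt8, Krt18, Krt19, Cldn4 and Cldn7). Krt18 was well above background on all 5, Epcam was detected on 2 but well above background on none, and Cdh1 was not detected on any. All 8 fibroblast and mesenchymal markers (Vim, Col1a1, Col1a2, Pdgfra, Pdgfrb, Dcn, Acta2 and Thy1) were well above background on every control array. So were 3 of 5 alveolar type I markers (Pdpn, Hopx and Cav1) and 1 of 5 type II markers (Abca3). The same held for 2 of 5 macrophage and leukocyte markers (Itgam and Csf1r) and 1 of 5 endothelial markers (Kdr). The mean control log2 ratios of Krt8, Krt18, Krt19 and Cldn7 were -4.35, -5.62, -4.91 and -2.11, and that of Cldn4 was 0.28. Those of the mesenchymal markers ran from -2.76 for Thy1 to 1.77 for Col1a1. Median control Cy5 intensity was 913 for Krt18, above Pdgfra (854.5) and Pdgfrb (371) but below the other mesenchymal markers. Keratin and claudin markers of the labelled epithelial type were thus detected, but only Krt18 was well above background on every control array. Cdh1 and Epcam were well above background on none. All mesenchymal markers and some markers of the other lists were present too.

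Ptgs2, which encodes the inducible cyclooxygenase, was the member whose transcript rose with Mitsui7, and it did so at each dose. In controls the log2 ratio of Ptgs2 was 1.5, 1.12, 1.31, 0.86 and 0.73 in replicates 1 to 5, with a mean of 1.10 ± 0.31 (SD, n = 5). At the low dose the lowest value was 2.00, the median 2.67 and the highest 3.07, with a mean of 2.58 ± 0.42 (SD, n = 6). All low dose arrays lay above all controls. The medium dose arrays gave 2.47, 2.52, 2.78, 2.89 and 2.70, with a mean of 2.67 ± 0.17 (SD, n = 5). At the high dose the lowest value was 2.12, the median 2.67 and the highest 3.00, with a mean of 2.63 ± 0.37 (SD, n = 6). Neither group overlapped the controls, and the 3 doses covered nearly the same range.

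**Figure D1:**
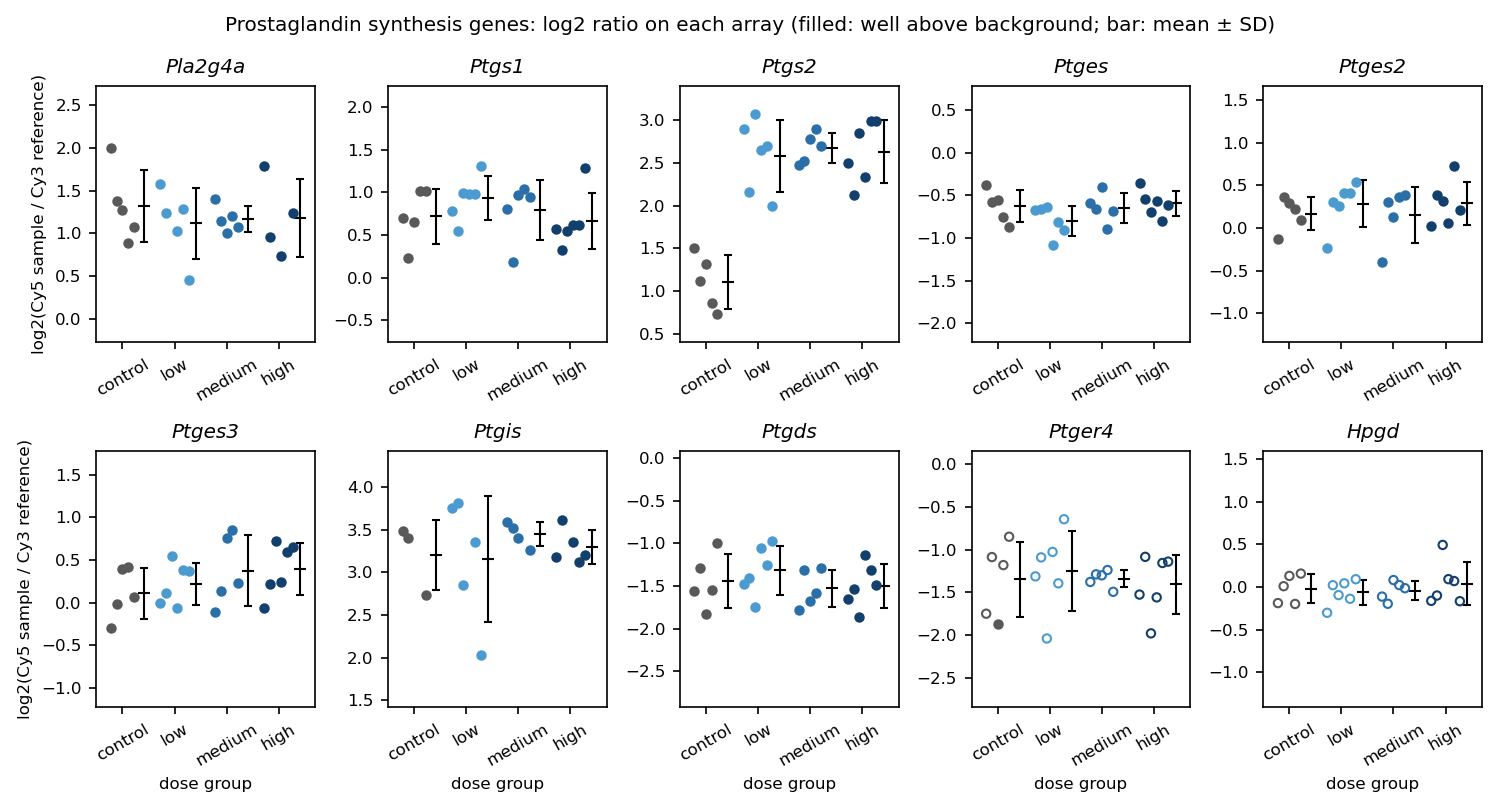
Log2 ratio of Cy5 (sample) to Cy3 (reference) of the brightest probe of each gene, by dose group; each point is an array, filled where the spot was well above background, and the bar beside each group is the mean ± SD. The y axes of all panels span the same distance but start at different values. For Ptgs2 every exposed array, from 2.00 to 3.07, lies above every control, of which the highest is 1.5, while the groups overlap for the other genes.

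In the model with slide, Ptgs2 changed by 1.43 on the log2 scale at the low dose (SE 0.18, 95% interval 1.04 to 1.81, limma adjusted p 7.62e-05), or 2.69-fold. The change was 1.57 at the medium dose (SE 0.19, 95% interval 1.18 to 1.96, limma adjusted p 1.98e-05), or 2.97-fold, and 1.48 at the high dose (SE 0.18, 95% interval 1.10 to 1.86, limma adjusted p 1.54e-05), or 2.79-fold. After adjustment for slide, 6 of 6 low, 5 of 5 medium and 6 of 6 high dose arrays were above every control. The 3 comparisons share the 5 control arrays and are not independent of each other. Genes were called where the adjusted p was no higher than 0.05, the change was 1.5-fold or more, and 4 or more arrays of one of the groups detected the probe. By that rule Ptgs2 ranked 26th of 302 genes called higher at the low dose, 30th of 574 at the medium dose and 57th of 767 at the high dose, where the median increases were 0.81, 0.77 and 0.79. Dose group accounted for 76.1% of the variance of Ptgs2 over the 22 arrays after slide.

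The rise was seen on each slide that held controls. Within a slide the low dose exceeded the control by 1.22 on slide 1, 1.80 on slide 2, 1.75 on slide 3 and 1.26 on slide 4. For the medium dose the differences ranged from 1.19 to 2.03 over the same 4 slides, and for the high dose from 1.00 on slide 1 to 2.26 on slide 4. The increase came from the sample channel. The normalised log2 Cy5 signal of Ptgs2 lay between 10.51 and 11.70 in controls and between 12.09 and 13.14 in all exposed arrays. The Cy3 signal of the reference stayed between 9.65 and 10.38 over all 22 arrays. Before normalisation the Cy5 intensity ran from 669 to 5620 in controls and from 1697 to 14821 at the low dose, so the raw intensities of the groups overlapped. The spot was well above background and unsaturated on all 22 arrays.

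**Figure D2:**
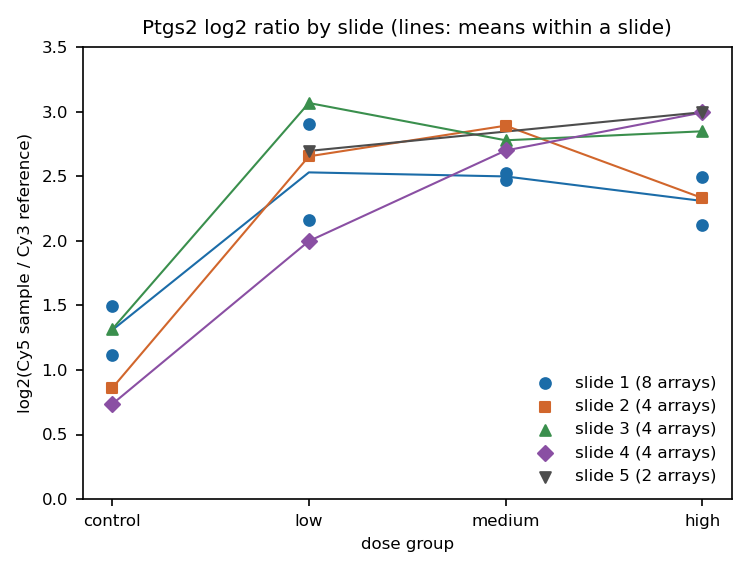
Log2 ratio of Ptgs2 on each array by dose group, with colour and marker for the slide; lines join the means within a slide. On each of the 4 slides with controls all exposed arrays lie above the controls, and the order of the 3 doses differs between slides.

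The dose made no detectable difference to Ptgs2 once the cells had been exposed. Medium against low dose gave 0.14 (95% interval -0.24 to 0.52, limma adjusted p 0.937), high against medium -0.09 (95% interval -0.47 to 0.29, adjusted p 0.999) and high against low 0.05 (95% interval -0.30 to 0.41, adjusted p 0.967). All 3 intervals lie within 1.5-fold in either direction. Within slides, the high dose was above the low dose on 2 of 5 slides and below it on 3, with differences from -0.32 to 1.00.

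The call at the low dose was lost in 1 of 43 other settings, median centring of the arrays in place of loess, where the change was 1.30 with a limma adjusted p of 0.0808. That centring also moved the median change of all genes at the low dose from 0.00 to -0.11. Ptgs2 was called at each dose without low dose replicate 1 and medium dose replicate 2 together, and with any single array left out. Taken as a sum, the mesenchymal markers moved in the opposite direction with exposure. Their summed log2 ratio over 8 genes ran from -2.84 to -1.39 in controls and from -10.32 to -4.40 in low dose cells. Medium dose cells gave -11.27 to -8.29 and high dose cells -11.51 to -8.57. With rising dose 4, 5 and 5 of the 8 genes were called lower, where 5.28%, 8.96% and 11.9% of all genes were called in either direction. They were Col1a1, Col1a2, Pdgfra and Dcn at each dose and Pdgfrb at the medium and high dose. Acta2, Vim and Thy1 were called at no dose, with high dose changes of -0.70, 0.14 and -0.02. The epithelial markers ran from -22.51 to -16.60 in controls and from -23.57 to -19.14 at the high dose, with 0 of 7 called. The sum of 5 alveolar type I markers was lower too. It ran from 0.04 to 1.20 in controls, from -1.80 to -0.14 in low, from -2.24 to 0.0054 in medium and from -2.68 to -1.75 in high dose cells, without overlap with the controls. Of these 5, Hopx was called lower at each dose (-2.08 at the high dose) and the others at none. The part of cell composition in the Ptgs2 result was not tested, and in bulk RNA fewer cells of a type cannot be told apart from less RNA per cell.

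Pla2g4a, which encodes the cytosolic phospholipase A2 that releases arachidonic acid, was not called at any dose. Its log2 ratio was 2.00, 1.38, 1.27, 0.89 and 1.08 in controls and 1.40, 1.15, 1.01, 1.20 and 1.07 at the medium dose. It ranged from 0.45 to 1.58 on 5 low dose arrays and from 0.73 to 1.78 on 4 high dose arrays, so every group overlapped the controls. Low dose replicate 3 and high dose replicates 3 and 5 had no value because their spots carried outlier marks. The changes were -0.27 at the low dose (95% interval -0.67 to 0.12), -0.16 at the medium dose (-0.55 to 0.23) and -0.17 at the high dose (-0.57 to 0.22), with limma adjusted p of 0.582, 0.798 and 0.764. The sign was negative at each dose, but the low dose interval reached past a 1.5-fold decrease.

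Ptgs1, which encodes the constitutive cyclooxygenase, gave log2 ratios of 0.70, 0.23, 0.65, 1.01 and 1.02 in controls. The medium dose arrays gave 0.81, 0.18, 0.97, 1.04 and 0.95, the low dose ran from 0.55 through a median of 0.98 to 1.31, and the high dose from 0.32 through 0.60 to 1.29. All 4 groups overlapped. With rising dose the changes were 0.21, 0.07 and -0.06 (limma adjusted p 0.504, 0.894 and 0.902), and all 3 intervals, from -0.32 to 0.47 at the widest, lay within 1.5-fold. The high dose was below the low dose on 5 of 5 slides, with a difference of -0.27 in the model (95% interval -0.51 to -0.03) that did not pass the adjustment (limma adjusted p 0.522). The lowest interval bound of the Ptgs2 change, 1.04, lies above the highest bound of the Ptgs1 change, 0.47; the difference between the genes was not tested itself.

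The 3 prostaglandin E synthases did not pass the test. Ptges encodes the inducible microsomal enzyme that is often regulated together with Ptgs2. Its brightest probe gave -0.38, -0.58, -0.56, -0.75 and -0.87 in controls. The medium dose arrays gave -0.59, -0.66, -0.40, -0.89 and -0.69, the low dose -1.08 to -0.64 and the high dose -0.80 to -0.35. These groups overlapped, and the changes were -0.15, -0.02 and 0.05 (limma adjusted p 0.518, 0.967 and 0.868). Its 95% intervals, the narrowest among the brightest probes of the 8 detected members, lay between -0.33 and 0.24 at all doses. The second Ptges probe, well above background on 20 of 22 arrays, gave -0.40, -0.33 and -0.50, with a limma adjusted p of 0.0635 at the high dose. Both probes therefore failed the test, and at the high dose they differed in sign. The high dose interval of the second probe, -0.84 to -0.16, reached past a 1.5-fold decrease. Its mean normalised log2 Cy5 signal was 7.22 in controls and 7.14 at the high dose. The Cy3 signal of the reference was 8.49 and 8.92, so most of that difference lay in the reference channel.

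Ptges2, which encodes a membrane-associated prostaglandin E synthase, gave -0.12, 0.36, 0.29, 0.23 and 0.09 in controls. At the high dose it ran from 0.03 through a median of 0.26 to 0.73, within reach of the controls. Its changes were 0.06, -0.02 and 0.06, with all intervals inside 1.5-fold. Ptges3, which encodes the cytosolic synthase also known as the p23 co-chaperone of Hsp90, had 4 probes. The brightest gave -0.29, -0.02, 0.39, 0.42 and 0.06 in controls and -0.06 to 0.72 at the high dose, with changes of 0.08, 0.26 and 0.25 (limma adjusted p 0.868, 0.353 and 0.334). At the high dose the other 3 probes gave 0.25, 0.25 and 0.13, so that all 4 were positive, none passed the test, and every interval lay within 1.5-fold. The dimmest of the 4 read 2.08 to 3.35 on the 8 arrays of slide 1 and 0.75 to 1.36 on the 14 arrays of slides 2 to 5, in every dose group alike. Its mean over a group therefore depends on the slides, and only the model with slide is used for it.

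**Figure D3:**
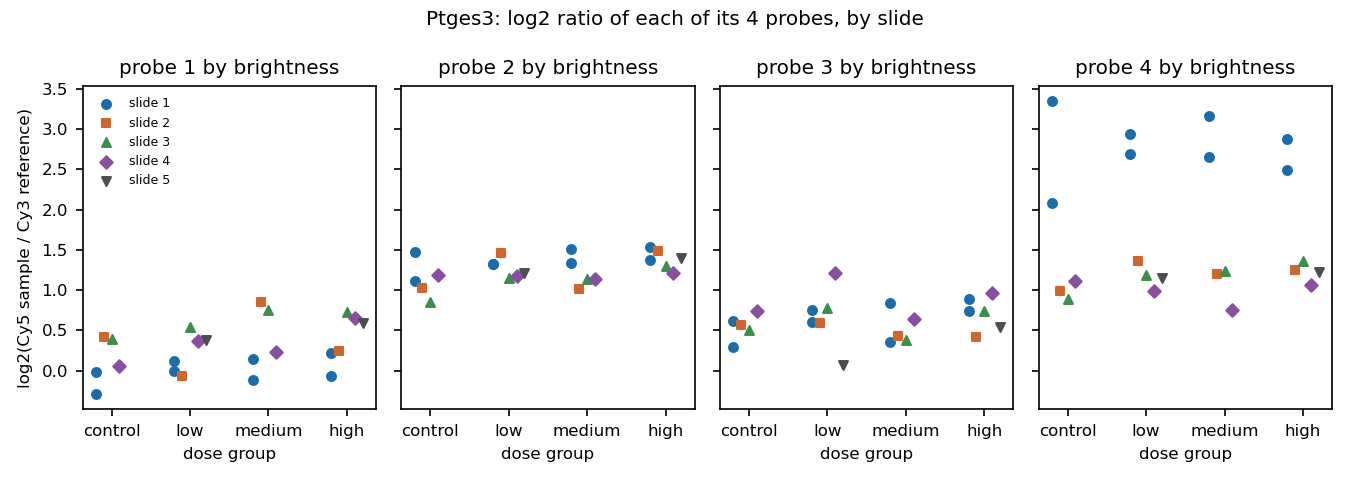
Log2 ratio of the 4 probes of Ptges3, ordered by brightness, on each array by dose group, with colour and marker for the slide. Dose groups overlap for every probe, and for the fourth probe slide 1 (2.08 to 3.35) lies apart from slides 2 to 5 (0.75 to 1.36).

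Ptgis, which encodes prostacyclin synthase, was bright on all 22 arrays, but 5 arrays carried outlier marks and gave no ratio. Its log2 ratio was 3.48, 3.40 and 2.74 on the 3 measured controls and 3.59, 3.51, 3.40 and 3.27 on 4 medium dose arrays. The low dose spread from 2.03 to 3.82 over 5 arrays and the high dose from 3.12 to 3.61 over 5. The groups overlapped, although 4 of 4 medium dose arrays lay above the controls after adjustment for slide. The change at the medium dose was 0.29 (95% interval -0.18 to 0.77, limma adjusted p 0.635), an interval that reaches past 1.5-fold. At the low and high dose it was 0.00 and 0.07. Ptgds, which encodes the lipocalin-type prostaglandin D synthase, was low in the cells, with Cy5 intensities from 129 to 310, and well above background on every array. Its log2 ratio was -1.56, -1.29, -1.83, -1.55 and -0.99 in controls and -1.87 to -1.13 at the high dose. The changes of 0.10, -0.08 and -0.08 (limma adjusted p 0.781, 0.847 and 0.850) had intervals within 1.5-fold.

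Neither the receptor nor the inactivating enzyme in the set could be compared. Ptger4 encodes the EP4 receptor, which signals prostaglandin E2 through cAMP. Its spot was well above background on 1 control array and on none of the exposed arrays, with Cy5 intensities from 66 to 98.5. Hpgd encodes the dehydrogenase that begins the breakdown of prostaglandins. Both its probes were not well above background on any of the 22 arrays, at intensities from 60 to 78. No fold is given for either gene, since the arrays cannot tell a change below that level.

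Counted together, 8 of the 10 members were detected and tested, and 1 of the 8, Ptgs2, was called at each dose. Over all genes tested by their brightest probe, 5.28% were called in either direction at the low dose, 8.96% at the medium dose and 11.9% at the high dose, and 2.21%, 4.28% and 5.47% were called higher. A single call among 8 genes is close to these shares, so the count itself sets the group apart from no other genes. The median change of the 8 was 0.07, 0.03 and 0.06, against 0.00, 0.00 and 0.01 over all genes tested. For the other 7 the values lay between -0.27 and 0.21 in low, between -0.16 and 0.29 in medium and between -0.17 and 0.25 in high dose cells, with lowest limma adjusted p of 0.504, 0.353 and 0.334. For 6, 6 and 7 of the 7 the 95% interval lay within 1.5-fold. Between doses 0 of 8 members were called by limma or by the linear model without shrinkage. At an unadjusted p under 0.05 there were 0 for medium against low, 0 for high against medium and 2 for high against low (Ptgs1 and Ptges), where 2128 of 14256 genes in all had such a p. By the full call rule 0%, 0% and 0.463% of all genes were called in these comparisons.

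**Figure D4:**
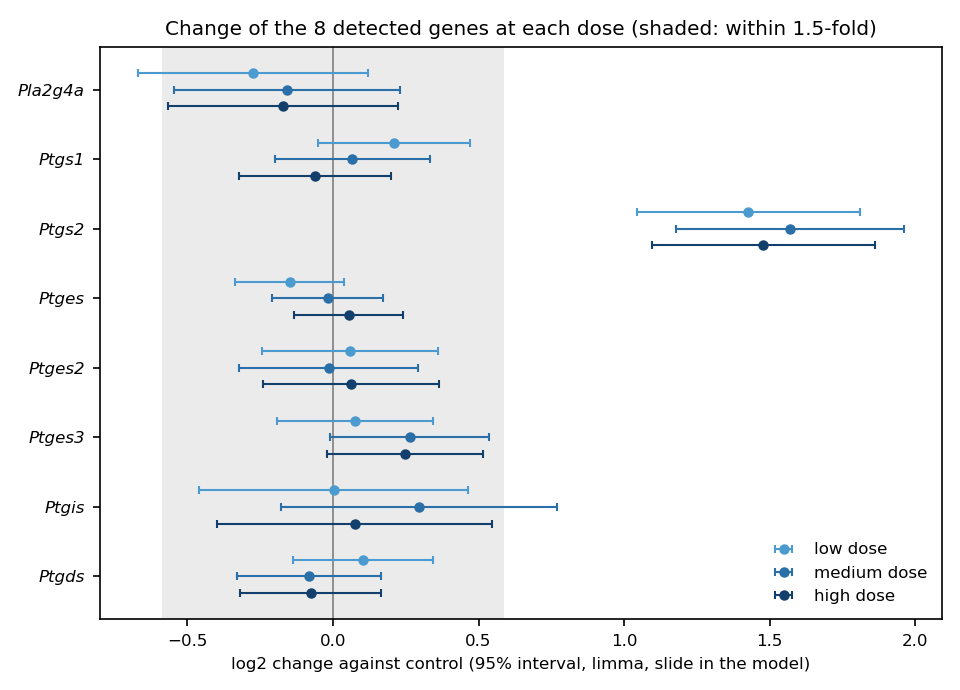
Log2 change against control of the 8 detected genes at the low, medium and high dose, as points with 95% intervals from limma with slide in the model; the shaded band is 1.5-fold in either direction. Ptgs2 lies between 1.43 and 1.57 at each dose, and the other 7 genes lie between -0.27 and 0.29.

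The genes whose pattern over the arrays was most like that of Ptgs2 were looked up among 14017 probes with a symbol. After adjustment for slide, Pearson correlations over 22 arrays among the highest were those of Fhl2 (0.983), a LIM-domain cofactor, Sphk1 (0.966), the kinase that makes sphingosine 1-phosphate, Edn1 (0.962), the precursor of the vasoconstrictor endothelin 1, and Ivns1abp (0.961), an actin-binding Kelch protein. These 4 genes rose at each dose, by 0.95 to 1.20. The points share the step from control to exposed cells, so these values mostly restate that step. After adjustment for slide and group the highest were Acot13 (0.945), Rpl27a (0.919), Fhl2 (0.914), Bud31 (0.861) and Gm5820 (0.859, 21 arrays), and Fhl2 was on both lists. Leaving out any single array kept these correlations at 0.836 or above. Among the members, that of Pla2g4a with Ptgs2 was 0.00 after slide and 0.80 after slide and group over 19 arrays, and that of Ptgs1 was 0.23 and 0.32 over 22 arrays. After slide and group the remaining members ran from -0.49 for Ptger4, which was near background, to 0.37 for Ptgis over 17 arrays. All correlations are descriptions of arrays that share slides and reference.

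The genes around this pathway were described from 8 further lists, which hold 81 genes, 79 of them on the array by symbol and 53 to 57 of them detected in a comparison. Of these, 10 of 54 were called at the low dose (6 higher and 4 lower), 9 of 53 at the medium dose (6 and 3) and 11 of 57 at the high dose (6 and 5), or 18.5%, 17.0% and 19.3%, beside 5.28%, 8.96% and 11.9% of all genes. The lists were chosen with earlier results of these data known, so these shares are descriptions. The median change over the lists was 0.03, 0.00 and -0.02, near that of all genes. The 12 genes called at 1 or more doses are described in the order of the pathway.

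Upstream of the cyclooxygenases, 17 or 18 genes of arachidonate release and reacylation were detected and 0 were called higher. Over all genes 2.21%, 4.28% and 5.47% were called higher with rising dose, so a count of 0 is close to these shares. Lpcat3, which returns arachidonate to phospholipids, had log2 ratios of 0.04 to 0.60 in controls and -0.86 to -0.51 at the high dose, which do not overlap. It fell by 0.71, 1.01 and 1.06 with rising dose (limma adjusted p 0.0119, 0.000435 and 0.000115). The low dose call was lost in 6 of 43 other settings. Among them was that without low dose replicate 1, where the change was -0.57 and short of 1.5-fold. Acsl3, an acyl-CoA synthetase, fell by 0.67 at the low and 0.84 at the high dose (limma adjusted p 0.0456 and 0.00481), and the first of these calls was lost in 25 of 43 other settings, among them 12 single arrays left out, of any group, with changes of -0.72 to -0.53. The brightest probe of Anxa1, which encodes an inhibitor of phospholipase A2, was not called, at -0.57 for the high dose (limma adjusted p 0.0879), but its second probe was, at -0.75 (limma adjusted p 5.65e-06).

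Downstream, 4 genes of other terminal synthases were detected. Tbxas1, thromboxane A synthase, was not well above background on any control array, and on 4 of 6 low, 4 of 5 medium and 5 of 6 high dose arrays it was. Its fold was bounded from the normalised Cy5 signal, with each control set to the lowest signal well above background on its array where it was lower. By this bound Tbxas1 was at least 1.38-fold higher at the low dose, 1.39-fold at the medium dose and 1.31-fold at the high dose. The bounds were not tested themselves. The modelled log2 ratio of Tbxas1 had limma adjusted p of 0.000659, 0.00296 and 0.0124. In the model the high dose change of 0.53 missed the 1.5-fold threshold. The medium dose call was lost in 6 of 42 other settings, among them that without control replicate 3 (0.57). Ptgr1, a reductase that acts on oxidised prostaglandins and leukotriene B4, fell by 0.70, 0.60 and 0.77 (limma adjusted p 0.0140, 0.0331 and 0.00282), and every exposed array was below every control after adjustment for slide. Its low dose call was lost in 7 of 43 other settings, among them that without control replicate 4 (-0.63, limma adjusted p 0.0622). Its medium dose call was lost in 15 of 43 other settings, among them those without control replicates 1 or 4 or medium dose replicates 1, 2, 3 or 5, with changes of -0.60 to -0.53. Among other prostanoid receptors, 4 of 9 were detected at the high dose and 0 were called, where 11.9% of all genes were called. Ptger1, another prostaglandin E2 receptor, gave -0.44 (limma adjusted p 0.0204), short of 1.5-fold.

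In the lipoxygenase branch, which turns the same substrate into leukotrienes, 2 genes moved in opposite directions. Cysltr1, a receptor for cysteinyl leukotrienes, had log2 ratios of 2.46 to 3.28 on 4 measured controls, 1.31 to 2.33 at the low dose and 1.00 to 1.62 at the high dose. It fell by 1.07, 1.08 and 1.61 (limma adjusted p 0.000193, 0.000121 and 5.08e-07), and its second probe fell by 0.92, 1.15 and 1.32. High against low dose gave -0.54, which did not pass the test (limma adjusted p 0.104). Aloxe3, an epidermal lipoxygenase, had modelled changes of 0.62, 0.63 and 0.99 (adjusted p in limma 0.0142, 0.00939 and 6.63e-05), which met the call at each dose. It was detected on 2 and well above background on 1 of 5 controls, so the size of the change is uncertain, and over 16 other ways of processing it ranged from 0.45 to 1.48 at the low and from 0.76 to 2.38 at the high dose. The low dose call was lost in 17 of 43 settings, among them the replicate block (0.56) and leaving out control replicates 1, 3 or 4 or low dose replicates 1 or 4 (0.55 to 0.58). The medium dose call was lost in 10 of 43 settings, among them those without control replicate 3 (0.57) or medium dose replicate 4 (0.57). In the epoxide route Ephx1, the microsomal epoxide hydrolase, fell by 0.69 at the high dose (limma adjusted p 0.00905), and its second probe fell by 0.98 at the medium and 1.06 at the high dose (limma adjusted p 0.0217 and 0.00711).

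Of 7 genes for proteins that bind the Ptgs2 mRNA, 1 was called by its brightest probe at each dose. Over all genes 5.28%, 8.96% and 11.9% were called with rising dose, so this count is close to those shares. Zfp36l1, which speeds the decay of AU-rich mRNAs, rose by 0.81, 0.88 and 0.60 (adjusted p in limma 0.000662, 0.000222 and 0.00389), and all exposed arrays lay above every control after adjustment for slide. The high dose call was lost in 6 of 43 other settings. The change was short of 1.5-fold without control replicate 5 (0.47) or high dose replicate 6 (0.46). Elavl1, whose product stabilises AU-rich mRNAs, gave 0.16 at the high dose by its brightest probe (limma adjusted p 0.391), while its second probe gave 0.38, 0.48 and 0.60 and was called at the high dose (limma adjusted p 0.0004). Among 10 genes known to respond to cAMP, the second messenger of the EP4 receptor and of many other signals, 3 of 8 detected rose at the low dose, 3 of 8 at the medium dose and 4 of 9 at the high dose, and 0 fell, where 2.21%, 4.28% and 5.47% of all genes were called higher. Nr4a1, an orphan nuclear receptor and immediate early gene, had log2 ratios of -2.86 to -2.54 in controls and -1.53 to -1.37 at the high dose, and rose by 1.26, 1.03 and 1.29 (adjusted p in limma 1.2e-07, 1.31e-06 and 2.64e-08). Its relative Nr4a2 rose by 1.13, 1.15 and 1.30 (adjusted p in limma 3.88e-05, 2.19e-05 and 1.95e-06). Its second probe gave 0.87, 1.04 and 1.14 and was not called at the low dose (limma adjusted p 0.0552). Crem, a cAMP-responsive transcriptional modulator, rose by 0.84, 0.70 and 0.80 (adjusted p in limma 0.0021, 0.007 and 0.00124), while its second probe gave 0.49, 0.44 and 0.39 and was not called. Fosb, a subunit of AP-1, was called at the high dose, at 0.79 (limma adjusted p 0.0132). That call was lost in 6 of 43 other settings, among them those without control replicate 1 (0.66) or control replicate 4 (0.67). With the replicate block Fosb was called at the low dose too, at 0.65 (limma adjusted p 0.00873). The reference genes Actb, Gapdh and Hprt were not called at any dose. With rising dose Actb gave 0.62 (95% interval -0.07 to 1.31), -0.06 and 0.06, Gapdh -0.10, -0.42 (95% interval -0.75 to -0.10, limma adjusted p 0.146) and -0.31, and Hprt 0.24, 0.13 and 0.39.

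**Figure D5:**
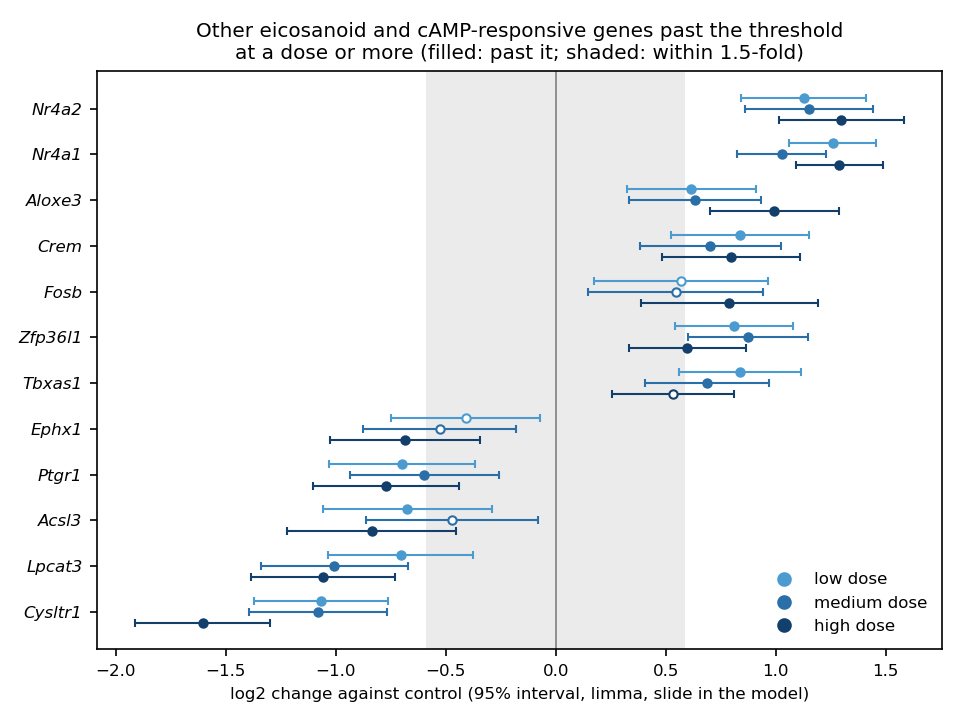
Log2 change against control of the 12 genes of the further lists called at 1 or more doses, as points with 95% intervals from limma, filled where the call was met; the shaded band is 1.5-fold in either direction. Nr4a1 and Nr4a2 lie between 1.03 and 1.30 at each dose and Cysltr1 between -1.61 and -1.07.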

How the data were processed

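The deposited scanner files, 1 for each of 22 arrays, hold the median intensity of each spot in Cy5 (sample) and Cy3 (Universal Mouse Reference RNA) as extracted by the authors with Feature Extraction 10.7.3.1, per the file headers. The deposited log10 ratio of each spot was computed by the same software per the file headers, and served as an alternative. The deposited series matrix holds log2 ratios whose normalization is not given in the sources used here, with column medians of 0.00433 to 0.0267; each of its 22 columns correlated best with its own array. Flags and control types, coded in other deposited columns, were used as given.

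The 3671 control spots of an array were left out, which kept 59305. Spots marked as outliers were set to missing, log2(Cy5/Cy3) of the unsubtracted medians was loess-normalised array by array, and spots of a probe were combined by the median. A probe was detected when its Cy5 intensity lay over that of the 308 negative control spots by 3 SDs (mean and SD after trimming 5% at either end). Symbols came from RefSeq (GRCm38.p6) by accession, for 26413 of 55681 probes; promoters came from the same build, with 9 of 10 members matched.

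A single limma model (version 3.58.1, R 4.3.3) held all arrays and the terms group and slide; Benjamini-Hochberg adjustment ran over the p-values of all probes. The shrinkage test named in the study's methods was not run, and limma took its place. Calls were made as defined in the report. The fits were tested on simulated data. Alternatives covered the model, normalization, filters, thresholds and leaving out arrays and slides.

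The members and lists were chosen with earlier results of these data known. The 10 members were all named; genes of other lists were named where called at 1 or more doses. Likeness to Ptgs2 was taken over probes detected and measured on at least 20 arrays, and 1 gene it named is not reported here. The labels number the arrays of each group. Deviations from the group mean of same-numbered arrays correlated at 0.174 to 0.821 in 27 pairs on the same slide and at 0.277 to 0.508 in 4 pairs on different slides. Differently numbered arrays gave 0.041 to 0.550 in 16 pairs on the same slide and -0.718 to 0.497 in 134 pairs on different slides. Number mostly goes with slide, and whether it marks a pairing was not tested. The labels call the samples biological replicates, while the study's methods name 3 separate exposure experiments, fewer than the 5 or 6 arrays of a group, and neither ties an array to an experiment. Arrays of a group may thus not be independent, and p-values measure only the spread between these samples. Intensity is not a count; the number of arrays limits the precision.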

Additional observations from a re-analysis of the deposited data

Results flagged for a closer look

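In 8 of 79 groups of arrays examined, for the 8 detected members and 12 named pathway genes, a single array stood apart from the rest. Its gap to the nearest array was judged against the range of its own group, so a flagged gap can be small. Chance alone flags about 5% of groups. Of the 8, 3 concern members. The log2 ratio of Ptgs1 on medium dose replicate 2 was 0.18, against 0.81 for the nearest of the others, and on high dose replicate 6 it was 1.29, against 0.62. The log2 ratio of Ptges2 on low dose replicate 1 was -0.24, against 0.26 for the nearest. Leaving out these arrays changed no call of a member. The other 5 are given with the nearest value of their group. They were Nr4a2 on low dose replicate 3 (-0.064, nearest 0.73) and Nr4a1 on high dose replicate 3 (-1.53, nearest -1.42). Ephx1 was flagged on control replicate 5 (-0.36, nearest 0.45) and medium dose replicate 2 (0.13, nearest -0.15). Zfp36l1 was flagged on medium dose replicate 3 (1.75, nearest 1.54). Without control replicate 5, Ephx1 was also called at the low dose (-0.60, limma adjusted p 0.0161) and the medium dose (-0.72, limma adjusted p 0.00334). No array stood apart in any group for Ptgs2.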

How the results depend on the processing

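Ptgs2 kept its direction and its call at the medium and high dose under all 43 settings (16 other ways of processing, 22 arrays and 5 slides left out in turn), with changes of 1.45 to 1.82 and 1.31 to 1.77. At the low dose it ranged from 1.30 to 1.59 and lost its call under median centring, so the count of members called there was 0; the cause was not tested. With single arrays left out, 1 member was called at each dose and 0 between doses, and 7 to 12, 7 to 11 and 10 to 14 other pathway genes were called at the low, medium and high dose. These latter counts fell to 5, 4 and 6 under median centring, to 3, 4 and 4 at a threshold of 2-fold, and to 5 at the low dose without slide 1 (fewer arrays), and rose to 18 at the high dose with no fold threshold. With the replicate block in place of slide, which groups arrays by replicate number, 1 member and 10, 9 and 11 other genes were called. Aloxe3 lost its low dose call (0.56) and Fosb gained it (0.65), and the block changed no other call. Of 30 gene and dose calls outside the members, 11 held in every setting: those of Cysltr1, Nr4a1 and Nr4a2 at each dose and of Lpcat3 at the medium and high dose. Within slide 4, Aloxe3 at the low dose (-0.030) and Ephx1 at the high dose (0.28) turned sign. The 7 other members were called in no setting. Their signs differed from the main one in 18 of 336 values under other processing and in 22 of 462 with an array left out. With a slide left out they differed in 12 of 105 values, and within slides in 21 of 76. Median centring also moved the share of calls that were higher over all genes from 41.9%, 47.8% and 45.9% with rising dose to 16%, 37.1% and 31.1%. Low signal limits Hpgd and Ptger4, and missing spots limit Ptgis and Pla2g4a.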
